A study of Mus musculus with 4 samples.

Results

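Notch signalling genes were compared between endothelial cells (ECs), which form the inner lining of blood vessels, from the mouse dura mater (dural ECs) and from the brain parenchyma (brain ECs). The 10 genes were the receptors Notch1 and Notch4, the ligands Dll1, Dll4, Jag1 and Jag2, and the target genes Hes1, Hey1, Hey2 and Heyl. They were taken by symbol, whatever their counts, and each stood on 1 of the 23282 lines of the count tables. The dura mater is the outermost membrane between skull and brain, and the study asked how its ECs differ from those of the brain. The mice of both groups were C57BL/6J at 8 weeks, male per the study's methods, with 2 libraries per tissue and no injury, transgene or treatment in the labels. Tissues were digested with enzymes, and CD31+ cells lacking CD45 and TER-119 were collected by flow cytometry. Cells of the brain, but not of the dura, were enriched on magnetic beads first. How many mice went into a library is not given in the sources used here, so p-values measure the spread between these libraries, which may be technical.

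Notch receptors are membrane proteins that are activated by Delta-like or Jagged ligands on a neighbouring cell. Ligand binding exposes the receptor to cleavage by ADAM proteases and then by gamma-secretase, and the freed intracellular part joins the DNA-binding protein RBPJ and switches on Hes and Hey genes, which encode transcriptional repressors. In vessels, signalling from Dll4 to Notch1 is known to restrain sprouting, and the pathway helps to set arterial identity.

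The libraries held 13518973 to 16096203 counts, and 9347 lines had enough counts to be tested. All 12 pan-endothelial markers were counted in every library (summed level 10040 and 12510 counts per 1000000, CPM, in brain ECs, and 8846 and 11330 in dural ECs). Leukocyte markers summed to 31.0 to 52.5 CPM in any library. Ptprc, which encodes CD45, had 1 to 4 counts, but the macrophage gene Cd68 had 4 and 3 counts in brain ECs against 550 and 441 in dural ECs, and Csf1r (646, brain replicate 2), C1qa (436) and C1qb (289, both brain replicate 1) each stood out in 1 brain library. Astrocyte markers summed to 82.8 and 298 CPM in brain ECs and 661 and 227 CPM in dural ECs. Aqp4 was at 0 in every library, while 3 of the 5 tested astrocyte markers were higher at an unadjusted p under 0.05 (7.04% of all genes). These were Slc1a3 (1 and 1 counts against 915 and 74), Slc1a2 (1 and 0 against 863 and 87) and Gja1 (743 and 103 against 3641 and 2460). The other tested markers, S100b (9 and 949 against 0 and 294) and Fgfr3 (440 and 2885 against 2663 and 793), overlapped between tissues. No astrocyte marker passed the adjusted threshold in edgeR. Markers of neurons and oligodendrocytes summed to 103 and 18.1 CPM against 195 and 20.0 CPM. The part of these cells in the Notch gene values was not tested. Erythroid markers were at 26510 and 37940 CPM in brain ECs against 2196 and 1123 in dural ECs. Some of their lines had nearly equal counts, such as Hbb-bs (111254) and Hbb-b1 (110614) in brain replicate 1. The sum may therefore hold the same reads on more than 1 line. Hba-a1 alone was at 8971 and 12970 CPM in brain ECs against 767 and 378 CPM in dural ECs. Genes of the early response to tissue dissociation were at 10820 and 9598 CPM in brain ECs against 37840 and 40670 CPM in dural ECs. Dural replicate 2 stood apart: 2800 lines had 64 or more counts there and 7 or fewer in replicate 1, against 410 the other way. In the brain these numbers were 1282 and 1290.

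None of the 7 Notch genes that could be tested passed a Benjamini-Hochberg adjusted p of 0.05 between the tissues under the quasi-likelihood test of edgeR, which 0.610% of all tested genes did. At an unadjusted p under 0.05 there was 1, Hes1, higher in dural ECs, where 7.04% of all genes were higher and 2.97% lower. DESeq2 called 0 of 8 tested (background 12.3%), limma-voom 0 of 7 (0.856%), a fit with replicates as a block 0 (2.40%), a newer edgeR dispersion estimate 0 (3.27%) and a fit without a filter on low counts 0 of 10 (2.39%). With 1 library left out, 2 of 9 were called without brain replicate 1 (6.38%), and 0 without brain replicate 2 (6.05%), dural replicate 1 (0.703%) or dural replicate 2 (0.965%). The values of Hes1 and Notch1 were higher in both dural libraries than in either brain library, and those of Hey1 were lower. That makes 3 of 7 genes without overlap between tissues, beside 43.1% of all tested genes, so the count is close to the background. In bulk RNA, fewer cells of a type and less RNA per cell cannot be told apart. Dll1, Hey2 and Heyl had too few counts to be tested. In the plot of levels by library, brain replicate 2 held the lowest value of 6 of the 7 tested genes, while it was lowest for 28.9% of the 8459 tested genes with an untied lowest library.

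**Figure D1:**
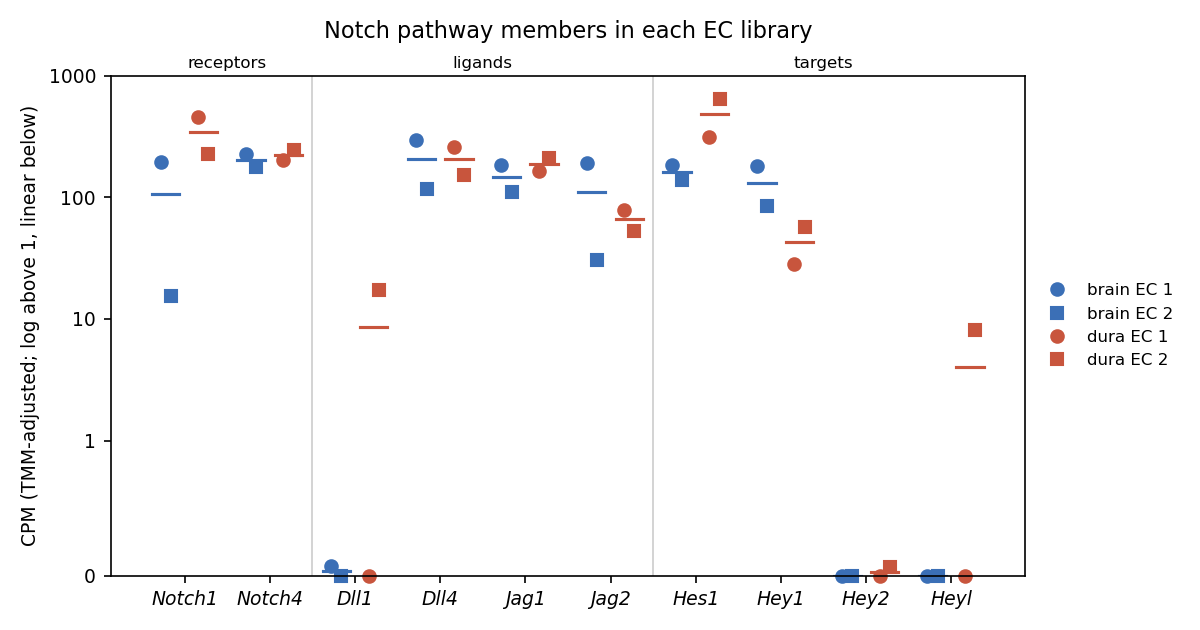
Level of each Notch gene (CPM on a scale that is logarithmic above 1 and linear below) in the 2 brain EC libraries (blue) and the 2 dura mater EC libraries (red); circles are replicate 1, squares replicate 2, and bars the mean of a tissue. Hes1 and Notch1 sit higher in both dural libraries, Hey1 sits lower, and Dll1 and Heyl appear in dural replicate 2 alone apart from 1 count of Dll1 in brain replicate 1.

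Notch1, the main receptor of vascular Notch signalling (chromosome 2, 26457903 to 26516663, minus strand, GRCm38), was counted 2842 and 203 times in brain ECs, against 6180 and 3711 times in dural ECs. These correspond to 196 and 15.3 CPM in brain ECs and to 461 and 227 CPM in dural ECs. The tissues did not overlap, but the brain replicates were 12.8-fold apart, where the median gene counted in both differed 1.98-fold. The mean was 106 ± 128 CPM in brain ECs and 344 ± 165 CPM in dural ECs (SD, n = 2), a log2 fold change of 1.70 (SE 1.10, 95% interval −0.96 to 4.36, adjusted p = 0.738 in edgeR). The value rested on which libraries were used: it was 0.76 without brain replicate 2, below the median of all genes in that fit (0.95). It was 0.97 without dural replicate 1 and 2.11 without dural replicate 2. Without brain replicate 1 it was 4.44 and passed (adjusted p = 4.5e-07 in edgeR), in a fit that called 6.38% of all genes and put the median of all genes at 1.03. Exons of antisense genes cover 9.76% of the exon length of Notch1, and whether reads were counted by strand is not given.

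Notch4, a receptor found largely on endothelium (chromosome 17, 34564268 to 34588503, plus strand), had the closest replicates of the 7 tested genes. It was at 225 and 177 CPM in brain ECs and 205 and 244 CPM in dural ECs, so the tissues overlapped. Its replicates differed 1.27-fold in the brain and 1.19-fold in the dura, and 80.3% and 82.6% of the tested genes had replicates further apart. The log2 fold change was 0.16 (SE 0.47, 95% interval −0.99 to 1.31, adjusted p = 1 in edgeR). The interval still allows a fold from 0.504 to 2.47, so equal levels were not shown.

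The share of Notch1 among the counts of both receptors therefore moved with Notch1. It was 46.6% (95% Wilson interval 45.3 to 47.8) and 7.98% (6.99 to 9.10) in brain ECs, and 69.3% (68.3 to 70.2) and 48.2% (47.1 to 49.3) in dural ECs. Wilson intervals cover counting error only. The dural shares were higher than either brain share, but brain replicate 1 lay much nearer to dural replicate 2 than to the other brain library.

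Among the ligands, Dll4, the Delta-like ligand of arterial and sprouting ECs (plus strand of chromosome 2, 119325784 to 119335962), was at 298 and 118 CPM in brain ECs and 260 and 152 CPM in dural ECs. Each tissue held a higher and a lower library, and the ranges lay across each other. The log2 fold change was −0.01 (SE 0.63, 95% interval −1.54 to 1.51, adjusted p = 1 in edgeR), which leaves room for a fold from 0.344 to 2.85. Its sign turned under 7 of the 14 other settings, among them upper-quartile scaling (0.087) and scaling by library size (0.012). An antisense gene, Gm14207, overlaps 5.56% of the exon length of Dll4 and had counts in dural replicate 2 alone (131).

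Jag1, a Jagged ligand of ECs and mural cells (chromosome 2, 137081456 to 137116644, minus strand), was at 186 and 110.3 CPM in brain ECs and 166 and 211 CPM in dural ECs. The tissues overlapped, with a log2 fold change of 0.35 (SE 0.57, 95% interval −1.02 to 1.72, adjusted p = 1 in edgeR). Jag2, a Jagged ligand of larger vessels and epithelia (chromosome 12, 112907819 to 112929776, minus strand), was at 193 and 30.3 CPM in brain ECs and 79.3 and 53.4 CPM in dural ECs. Both dural libraries lay between the brain libraries, which were 6.36-fold apart. The log2 fold change of −0.75 (SE 1.07, 95% interval −3.34 to 1.84, adjusted p = 1 in edgeR) became 1.09 without brain replicate 1 and −1.59 without brain replicate 2, where the medians of all genes were 1.03 and 0.95.

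Dll1 (chromosome 17, 15367354 to 15376872, minus strand), a Delta-like ligand, had 1 and 0 counts in brain ECs against 0 and 281 in dural ECs, which is 17.2 CPM in dural replicate 2. A count of 0 allows up to 3 counts, or 0.184 to 0.227 CPM in these libraries. Dll1 did not pass edgeR's filter on low counts, entered only some of the other fits and was called in none of them. No fold is given, since Dll1 was counted in 1 dural library and not in the other. Antisense exons cover 20.5% of its exon length.

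The 4 ligands together summed to 677 and 259 CPM in brain ECs and 506 and 434 CPM in dural ECs. The means were 468 ± 296 and 470 ± 51.0 CPM (SD, n = 2), a difference far smaller than the spread between the brain libraries. Within these sums, Dll4 made up 44.0% and 45.6% of ligand counts in brain ECs and 51.5% and 35.1% in dural ECs, Jag1 27.5% and 42.6% against 32.9% and 48.7%, and Jag2 28.5% and 11.7% against 15.7% and 12.3%. For each of these 3 ligands the shares of the tissues overlapped. In the plot of shares by library, no ligand therefore separates the tissues.

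**Figure D2:**
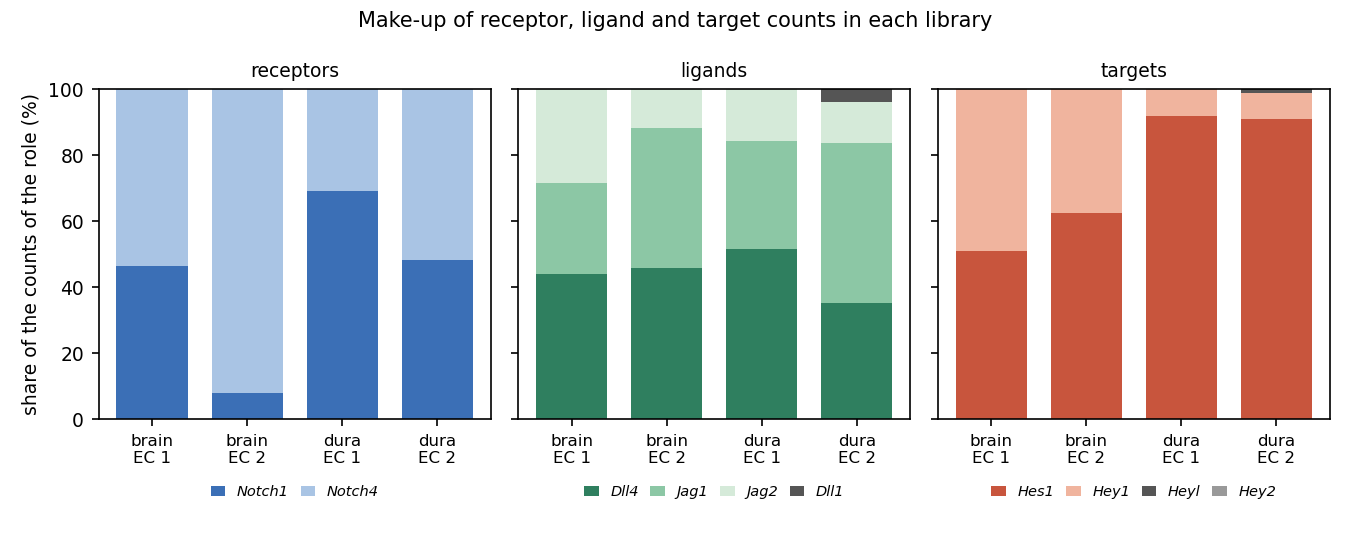
Share (%) of each gene in the summed counts of the receptors, ligands and targets, 1 bar per library; shares within a library do not depend on scaling, but depend on how each gene is captured, so they are to be read across bars of 1 gene. Hes1 makes up 50.8% and 62.3% of target counts in brain ECs and 91.7% and 90.8% in dural ECs, while ligand shares overlap between tissues.

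Of the targets, Hes1 and Hey1 had enough counts to be tested, and their values lay on opposite sides of 0. Hes and Hey repressors belong to related branches of 1 family and end in a short stretch that binds Groucho/TLE co-repressors in Hes proteins and differs in Hey proteins. The coding ends of the 4 targets are printed from GENCODE transcripts (GRCm38), 5′ to 3′, from 48 bases before the end through the stop codon. Capitals mark the 12 in-frame bases of that stretch, found as TGGNNNNNNTGG or TANNNNNNNTGG. They are shown as background, since Hes1 and Hey1 differ in this stretch. A link between the stretch and the RNA values was not tested.
Hes1: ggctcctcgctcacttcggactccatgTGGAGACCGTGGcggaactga
Hey1: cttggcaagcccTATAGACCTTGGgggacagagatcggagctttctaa
Hey2: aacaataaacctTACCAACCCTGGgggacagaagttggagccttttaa
Heyl: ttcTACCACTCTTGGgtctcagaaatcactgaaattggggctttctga

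Hes1 (chromosome 16, 30064384 to 30067796, plus strand), a repressor that Notch induces in many cell types, had 2694 and 1848 counts in brain ECs against 4231 and 10546 in dural ECs. Its levels were 186 and 139.7 CPM in brain ECs and 315.5 and 646 CPM in dural ECs. Both dural libraries lay above both brain libraries, and dural replicate 2 was highest. The means were 163 ± 32.6 and 481 ± 234 CPM (SD, n = 2), a 2.95-fold difference with a log2 fold change of 1.56 (SE 0.51, 95% interval 0.32 to 2.80). Over all genes it did not pass (adjusted p = 0.428 in edgeR, from 0.0447 to 0.808 over the alternatives), and it passed in 1 of them, without brain replicate 1, at a log2 fold change of 1.72 where the median of all genes was 1.03. The log2 fold change was above 0 in all 15 fits, from 0.94 without dural replicate 2 to 1.85 without dural replicate 1. The early response to dissociation, whose genes were higher in dural ECs by the summed levels given above, lay in the same direction as Hes1, and 5 of its 19 tested genes passed as higher in edgeR, where 0.610% of all genes passed in either direction. Its part in the Hes1 difference was not tested.

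Hey1 (chromosome 3, 8663359 to 8667256, minus strand), a repressor of the vascular Hey family, went the other way. It had 2605 and 1116 counts in brain ECs against 382 and 935 in dural ECs, or 179.7 and 84.4 CPM against 28.5 and 57.3 CPM. The tissues did not overlap. The means were 132 ± 67.4 and 42.9 ± 20.4 CPM (SD, n = 2), 3.07-fold lower in dural ECs, with a log2 fold change of −1.62 (SE 0.91, 95% interval −3.83 to 0.59, adjusted p = 0.627 in edgeR). The value was below 0 in all 15 fits, from −2.23 without dural replicate 2 to −1.03 without brain replicate 1, and passed the threshold in none of them.

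The ratio of Hes1 to Hey1 counts within a library, which no scaling can change, was 1.03 and 1.66 in brain ECs and 11.1 and 11.3 in dural ECs. This ratio was chosen after the values were seen. On the log2 scale the tissues were 3.09 apart, with an SD between replicates of 0.480 in the brain and 0.0185 in the dura, and from 2.75 to 3.43 with any library left out. An exact permutation test (two-sided) gave p = 0.333, the smallest that 2 against 2 libraries can reach, so the design cannot reach 0.05. The corresponding ratio of Notch4 to Notch1 was 1.15 and 11.5 in brain ECs and 0.444 and 1.07 in dural ECs. It did not overlap between tissues either, and the same permutation test gave it p = 0.333 as well. The ratios of Jag1 to Jag2 and of Dll4 to Jag1 overlapped between tissues. Of 4 ratios computed, that of Hes1 to Hey1 had the smallest spread between dural replicates. Between brain replicates, that of Dll4 to Jag1 had a smaller one (SD 0.412 on the log2 scale).

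Heyl, a Hey relative also known from mural cells (plus strand of chromosome 4, 123233556 to 123249875), was not counted in either brain library or in dural replicate 1, and had 132 counts (8.09 CPM) in dural replicate 2. Hey2, a repressor of arterial ECs (chromosome 10, 30832359 to 30842801, minus strand), had 1 count in dural replicate 2 and 0 in the other libraries. At these depths neither was detectable in brain ECs above 3 counts. Mural cell markers, given beside Heyl because mural cells express it, summed to 764 and 1215 CPM in brain ECs and 1239 and 704 CPM in dural ECs, with 5, 4, 1 and 0 of the 13 markers at 0 in the same order. Acta2 was the largest part of the sum in every library, at 343.5 and 805 CPM in brain ECs and 565 and 224 CPM in dural ECs. The library with Heyl had the lowest summed level and the lowest Acta2, Myh11 and Des. Pdgfrb (2038 counts), Abcc9 (1384) and Cnn1 (4) were highest in that library. The part of mural cells in the Heyl counts was not tested.

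The log2 fold changes of the 7 tested genes had a median of 0.16, beside −0.01 for all genes tested. In the plot of fold changes, leaving out 1 of the brain libraries moved each estimate further than any change of test, scaling or filter. For Hes1 and Hey1, leaving out dural replicate 2 moved the estimate further still, to 0.94 and −2.23. Leaving out a brain library also moved the median of all genes, to 1.03 without replicate 1 and 0.95 without replicate 2.

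**Figure D3:**
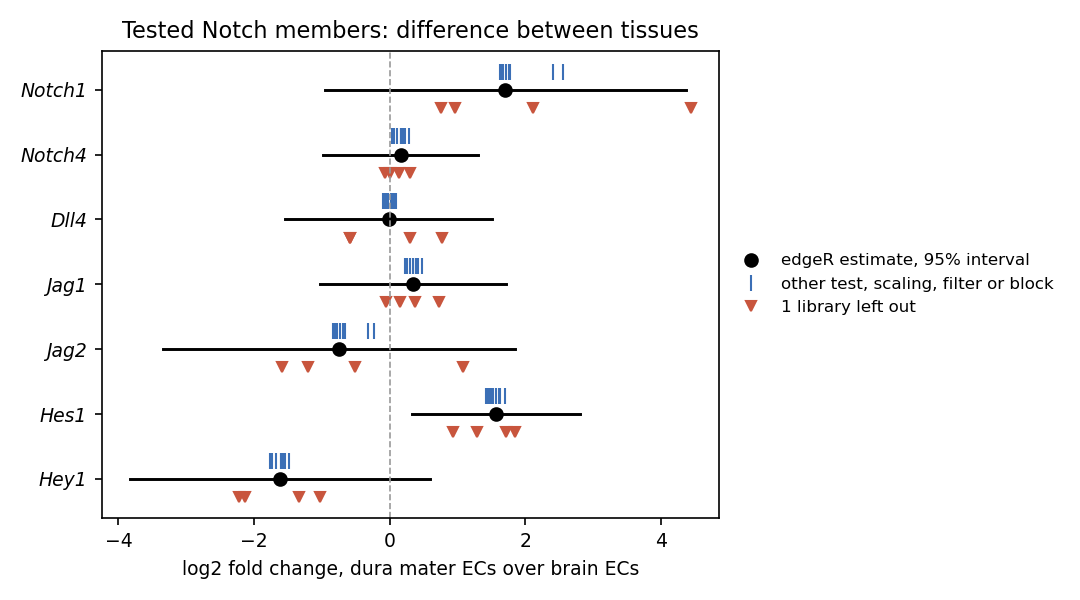
Log2 fold change (dural ECs over brain ECs) of the 7 tested Notch genes; black points and lines are the edgeR estimate with its 95% interval, blue ticks the estimates under other tests, scalings, filters or a replicate block, and red triangles those with 1 library left out. The interval of Hes1 (0.32 to 2.80) lies above 0 before adjustment over all genes, and the intervals of the other 6 span 0.

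Beyond these genes, 63 other genes of the pathway were listed by role, and 47 could be tested. None differed in edgeR at an adjusted p under 0.05 (background 0.610%), and 2 higher and 2 lower had an unadjusted p under 0.05 (7.04% and 2.97% of all genes). DESeq2 called 6 (background 12.3%), limma-voom 0 and a newer edgeR dispersion estimate 2 (3.27%). The genes called by DESeq2 were Bhlhe40, Dlk1, Eogt, Hdac2, Notch2 and Tle2, and those called with the newer estimate Bhlhe40 and Eogt. Without brain replicate 1, 6 were called (Bhlhe40, Crebbp, Dlk1, Mib2, Nrarp and Spen; background 6.38%), and without brain replicate 2, 4 were (Aph1a, Bhlhe40, Dlk1 and Eogt; 6.05%). Log2 fold changes were above 0 for 25 genes and below 0 for 22, with a median of 0.11. In the plot of pathway genes by role, 18 of the 47 did not overlap between tissues, 11 higher and 7 lower in dural ECs (background 26.2% and 16.9%).

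**Figure D4:**
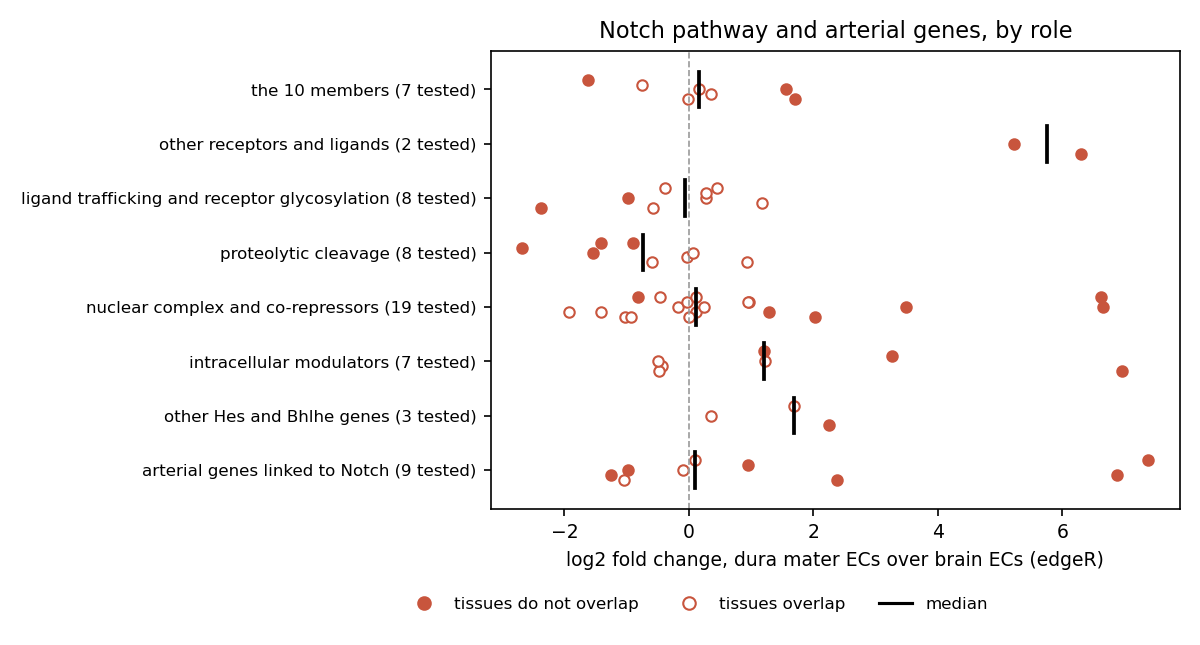
Log2 fold change (dural ECs over brain ECs, edgeR) of tested Notch pathway genes and arterial genes, 1 point per gene by role; filled points are genes whose tissues do not overlap, open points those that overlap, and bars the median of a role. Notch2 and Notch3 lie at 6.30 and 5.22, the proteolytic genes have a median of −0.74, and none of the points passed the adjusted threshold; Kat2a and Dtx2, without counts in brain ECs, stand at fitted values that are no bound.

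The other receptors were near absent from brain ECs. Notch2 had 3 and 5 counts in brain ECs against 489 and 509 in dural ECs, with a log2 fold change of 6.30 (SE 2.79, adjusted p = 0.472 in edgeR). Notch3, the receptor of mural cells, had 5 and 0 counts against 99 and 254 (log2 fold change 5.22, SE 3.20, adjusted p = 0.693 in edgeR). Neither overlapped between tissues and neither passed in edgeR, while Notch2 passed in DESeq2. Fibroblast markers were also higher in dural ECs, at 402 and 362 CPM against 7.52 and 51.1 CPM, with Dcn at 1184 and 1664 counts against 16 and 15, and Pdgfra at 0 or 1 in each library. Of the 9 fibroblast markers 4 could be tested, and the part of fibroblasts and mural cells in these receptor counts was not tested.

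Genes that modify receptors and ligands had a median of −0.06 over 8 tested. Eogt, which adds a sugar to Notch repeats, was at 406 and 188.5 CPM in brain ECs and 55.9 and 58.9 CPM in dural ECs. Its dural replicates were close and both lay below the brain replicates (log2 fold change −2.37, SE 0.62, adjusted p = 0.278 in edgeR). Eogt passed in DESeq2, with the newer dispersion estimate, without a filter on low counts and without brain replicate 2. Poglut1, another glycosyltransferase of the pathway, was lower without overlap as well (log2 fold change −0.98), and Mib2, a ubiquitin ligase of ligands, and Lfng, a Fringe glycosyltransferase, overlapped (1.18 and 0.27). Their edgeR adjusted p were from 0.896 to 1.

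The genes of receptor cleavage had a median of −0.74, and 6 of 8 were below 0. Aph1a, a subunit of gamma-secretase, was at 510 and 313 CPM in brain ECs and 129 and 180.1 CPM in dural ECs, without overlap (log2 fold change −1.41, SE 0.49, adjusted p = 0.46 in edgeR). Adam17, a sheddase, and Ncstn, another gamma-secretase subunit, did not overlap either, with log2 fold changes of −1.54 and −2.68. Ncstn had 1213 and 1031 counts in brain ECs against 0 and 409 in dural ECs, so its dural replicates lay far apart (SE 2.53). Adam10, the protease that makes the ligand-dependent cut, was at 0.94 and overlapped. None of these 3 passed (edgeR adjusted p from 0.496 to 0.953).

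Among 19 tested genes of the nuclear complex and its co-repressors the median was 0.11. Rbpj, the DNA-binding partner of the receptors, had 922 and 231 counts in brain ECs against 1 and 494 in dural ECs, so its replicates differed most in the dura (log2 fold change −1.41, SE 2.63, adjusted p = 1 in edgeR). Hdac2, a histone deacetylase, had 3 and 5 counts against 794 and 443, and Kat2a, an acetyltransferase, 0 and 0 against 177 and 227. The coactivator genes Crebbp and Maml2 were higher without overlap, with log2 fold changes of 3.48 and 2.02. The edgeR adjusted p of these 4 ran from 0.466 to 0.839.

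Of the intracellular modulators, Nrarp, a feedback inhibitor that Notch itself induces, had 364 and 2 counts in brain ECs against 1285 and 2454 in dural ECs (log2 fold change 3.27, SE 1.99, adjusted p = 0.688 in edgeR). It was higher in both dural libraries, as Hes1 was, and 1 brain library was close to 0. Dtx2, a Deltex gene, had 0 and 0 counts against 18 and 541. Fbxw7, which targets the active receptor for degradation, did not overlap either (1.21), and Dtx3 did (1.22). Hes2, Hes3, Hes5 and Hes7 had 0 counts in every library. Hes6 (1.69) and Bhlhe41 (0.36) overlapped between tissues. Bhlhe40, a related repressor also known from hypoxia and the circadian clock, was at 60.6 and 84.4 CPM in brain ECs and 411 and 280.2 CPM in dural ECs, with a log2 fold change of 2.25 (SE 0.53, adjusted p = 0.226 in edgeR). Bhlhe40 passed in DESeq2, with the newer dispersion estimate and without either brain replicate.

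Arterial genes linked to Notch lay on both sides of 0. Of 11 listed, 9 were tested, 5 above 0 and 4 below, with a median of 0.10, and none passed in edgeR, while 3 higher and 1 lower had an unadjusted p under 0.05 (7.04% and 2.97% of all genes). Efnb2, the arterial ephrin ligand, had 0 and 13 counts in brain ECs against 815 and 1418 in dural ECs (log2 fold change 6.88, adjusted p = 0.466 in edgeR). Nrp1, a co-receptor of VEGF, was at 247 and 310.5 CPM against 1287 and 1624 CPM, the closest to the threshold (log2 fold change 2.39, SE 0.35, adjusted p = 0.0544 in edgeR). Cxcr4, a chemokine receptor, had 0 and 1 counts against 487 and 368. Sox17, an arterial transcription factor, was lower, at 847 and 578.5 CPM in brain ECs and 382 and 344 CPM in dural ECs (log2 fold change −0.97, adjusted p = 0.466 in edgeR). Lymphatic endothelial markers, a further EC type within the CD31 gate, summed to 123 and 145 CPM in brain ECs and 433 and 645 CPM in dural ECs. Nearly all of the brain sum was Flt4 (122.6 and 144 CPM, against 178 and 246 CPM in dural ECs). Prox1 had 0 counts in both brain libraries against 492 and 125 in dural ECs, and Lyve1 0 against 911 and 1776. Of the 7 markers 5 were tested. Prox1, Lyve1, Mmrn1 and Ccl21a had 0 counts in both brain libraries and passed the filter through the dural libraries alone. These markers could therefore only come out higher without overlap. Flt4, counted in every library, was also higher without overlap, as were 26.2% of all tested genes. None of these lymphatic markers passed in edgeR. Their part in the Notch gene values was not tested.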

How the data were processed

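RNA of sorted dura mater and brain ECs (2 libraries each, grouped by sample title) was made into libraries with a QuantSeq kit per the labels. The catalogue number in the labels may belong to another kit of the same maker, so the kit is not certain. The authors deposited raw counts per gene symbol, 1 table per library, unscaled and unfiltered. The methods give TopHat and cufflinks, and the submitters' processing notes Bowtie2, edgeR and mm10; the counting step, annotation, strand and molecular identifiers are not given in the sources used here.

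Counts were tested in R 4.3.3 with edgeR 4.0.16 (quasi-likelihood test, TMM scaling, filterByExpr, prior count 2, tissue as the only term, Benjamini-Hochberg over 9347 lines). It stands in for cufflinks, which needs alignments. SE is the log2 fold change divided by the root of F, and 95% intervals use the t quantile of the fit. CPM are counts per TMM-adjusted library size, given as mean ± SD, n = 2. Totals of 13518973 to 16096203 counts put 3 counts at 0.184 to 0.227 CPM. DESeq2 1.42.0 (own filter on low counts), limma-voom 3.58.1, other scalings and filters, a newer dispersion estimate, a replicate block and each library left out were alternatives. Scripts were tested on simulated data.

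The 10 genes and the lists were chosen with earlier results of these data known. Named were the 10 genes, Notch2, Notch3, Rbpj and, per list, passing genes or else the 4 tested genes of smallest p; of marker lists, summed levels and defining markers. Positions are from GENCODE (GRCm38).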

Additional observations from a re-analysis of the deposited data

How the results depend on the processing

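Over 15 fits, the values of Notch1 and Hes1 stayed above 0 and those of Hey1 below 0. Of 102 estimates under other settings, for the 7 tested genes and the ratio of Hes1 to Hey1, 90 were unchanged, 10 changed sign and 2 passed the threshold. For a gene, unchanged means the same sign and the same side of the threshold. The ratio, chosen after the values were seen, has no threshold. For it, unchanged means the same sign and a shift below the larger SD between replicates. With 2 replicates per tissue, leaving 1 out always moves the ratio by less than that SD. The ratio did not overlap between tissues, so its sign could not change either. Its estimates were therefore bound to count as unchanged and are no sign of stability. Among the other settings, a prior count of 0.5 gave nearly the same values as the main fit. The sign changes were those of Dll4 with limma-voom (0.030), upper-quartile scaling (0.087), library size only (0.012), at least 10 counts in every library (0.042) and a replicate block (0.084), and those on leaving out a library: Dll4 ranged from −0.59 to 0.77, Notch4 from −0.071 to 0.29, Jag1 from −0.048 to 0.72 and Jag2 from −1.59 to 1.09. The median of all genes, −0.01 in edgeR, was 0.13 with upper-quartile scaling, 0.28 with limma-voom, 0.25 with the replicate block, 1.03 without brain replicate 1 and 0.95 without brain replicate 2. Relative to these medians, Dll4 was lower in each of the 5 settings, and Jag1 and Notch4 were lower without either brain replicate. Notch1 was lower than the median without brain replicate 2 (0.76) and higher without brain replicate 1 (4.44). Hes1 was higher than the median in both of these fits (1.29 and 1.72). The number of Notch genes called was 0 with every other setting and from 0 to 2 with 1 library left out (Notch1 and Hes1, without brain replicate 1); the lone sample left in a tissue is then assumed to vary like the other tissue's.

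Of the other pathway genes, 0 were called with edgeR, 6 with DESeq2, 2 with the newer dispersion estimate, 1 without a filter, and 0 to 6 with 1 library left out. Over all genes edgeR called 57 (40 higher, 17 lower), DESeq2 1259 (886 and 373), the newer dispersion estimate 306 (181 and 125), no filter 326 (195 and 131), at least 10 counts in every library 141 (75 and 66), the replicate block 224 (133 and 91) and limma-voom 80 (40 and 40). With 1 library left out the count ran from 80 to 740: 740 without brain replicate 1, 701 without brain replicate 2, 80 without dural replicate 1 and 97 without dural replicate 2. The cause was not tested. The same replicate numbers in both tissues are not stated to mark the same mice, and deviations of libraries with the same number were nearly uncorrelated across genes (−0.0153). The replicate block called 0 of the 7 tested Notch genes.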

Other observations

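Some Notch genes were counted in 1 library alone, with 64 or more counts there and 7 or fewer in each of the others; these are named after their values were seen. Of 73 pathway genes, 61 reached 64 counts in some library. In dural replicate 2 alone stood Dll1, Heyl, the ligand gene Dll3 (69 counts), and the gamma-secretase genes Aph1b (594) and Aph1c (135), 5 of the 61, beside 10.9% of the 11051 lines that reached 64 counts anywhere. In dural replicate 1 alone stood Dlk1, a non-canonical ligand (1797 counts, with 0 in dural replicate 2), and Tle2, a co-repressor (601), 2 of the 61 beside 2.77% of lines. No pathway gene was counted in a brain library alone, beside 1.34% and 1.10% of lines.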
